A study of Mus musculus with 5 samples.

Results

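The aminoacyl-tRNA synthetase genes of Th2 cells were examined by RNA Polymerase II ChIP-Seq. The set held 36 named genes, 20 for cytosolic enzymes and 16 for mitochondrial enzymes (names ending in 2). A row of the gene table was accepted only where its chromosome matched the locus of the named gene in mm9, and 27 genes had such a row (19 cytosolic and 8 mitochondrial) among 11608 rows. Of the rest, 8 names (Lars, Aars2, Hars2, Lars2, Nars2, Pars2, Vars2 and Wars2) stood on rows with the coordinates of other genes, and Mars2 had no row. All 27 accepted genes had an enriched interval in a Parp14+/+ library and none of the 8 misplaced genes had, so no gene with an interval in Parp14-/- cells alone is among the 27 (Aars2 and Hars2 were such genes), and genotype counts over the 27 genes are not free of this. Counts below are for the 27 genes, and the 8 misplaced genes are described separately by their position. Comparisons with other genes used the 8551 genes of the table with an enriched interval in at least 1 of the 4 libraries.

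Each aminoacyl-tRNA synthetase joins an amino acid to its tRNA, so the family supplies every codon that the ribosome reads. The enzymes fall into class I and class II by the fold of their catalytic domain. Several cytosolic enzymes are held together with scaffold proteins in the multi-synthetase complex, and Eprs joins the glutamyl and prolyl activities in a single chain. Mitochondria have their own set, encoded in the nucleus, although Gars and Kars serve both compartments and were counted with the cytosolic genes. In many cells, the transcription factor ATF4 activates cytosolic synthetase genes when amino acids are short.

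Naïve CD4+ CD62L+ T cells came from the spleens of C57BL/6 wild-type mice (Parp14+/+) or mice lacking Parp14 on that background (Parp14-/-), 6 to 8 weeks old. In both genotypes the cells were activated through CD3 and CD28 with IL-4 (10 ng/ml) and antibody to IFN-γ for 3 days and expanded with IL-2 (50 U/ml) and IL-4 for 4 days. PARP-14 is an ADP-ribosyltransferase that works with STAT6 in IL-4 responses, and PJ34 inhibits enzymes of this family without being specific for PARP-14. The labels give 10 µM PJ34 added to differentiated cells, whereas the methods of the study give a lower dose during culture, so the dose and the time of exposure are uncertain. Each genotype was studied untreated and with PJ34, and each of these 4 conditions was a single library. The antibody was directed against the elongating form of the polymerase, phosphorylated at serine 2, which is usually most abundant towards the 3′ ends of genes. The number of mice behind each library was not given, and an Input library served only as background for interval calling.

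The libraries had been reduced to equal numbers of alignments, so depth did not differ between them by construction, and no total per library was used here. They differed in the number of enriched intervals, which was 11692 untreated and 12014 with PJ34 in Parp14+/+ cells, and 10228 untreated and 8841 with PJ34 in Parp14-/- cells. Intervals covered 22873 and 20837 bp of Parp14 itself in the Parp14+/+ libraries without and with PJ34, against 2687 and 3287 bp in the Parp14-/- libraries. Of 8 T cell marker genes, 8, 7, 6 and 6 had an interval in the 4 libraries (in the order above), as had 6, 6, 5 and 5 of 6 Th2 markers. The summed height of the T cell markers was 127.5, 170.5, 137.5 and 124.5. That of the Th2 markers was 203, 176, 124 and 99, lower in both Parp14-/- libraries. Il4 (61, 39, 29 and 18), Il5 (21, 21, 4 and 6), Il13 (38, 33, 17 and 10) and Gata3 (60, 58, 45 and 43) were lower there. Il1rl1 was higher there (6, 8, 12 and 9), and Ccr4 had 17, 17, 17 and 13, so the Th2 markers did not fall as a whole. The part of the Th2 marker difference in the values below was not tested. Of 6 B cell markers 1 had an interval in each library, and their summed height ran from 49 to 63. Of 4 myeloid markers with a row, 1, 2, 0 and 1 had an interval. The single CD8 T cell marker with a row had none, and no NK cell marker had a row.

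The value of a gene was its average peak height. For each active region assigned to a gene the largest number of overlapping fragments was taken, and the regions were averaged. Assigned regions could begin 3000 bp upstream of a gene and extend 5000 bp past its end, a rule that returned the deposited number of regions for 27 of 27 synthetase genes. With 1 library per condition there was no replicate check. No test was made, since a fit of genotype and PJ34 over the 4 libraries would have to take their interaction as the error. Ratios are given with a 95% exact binomial (Clopper-Pearson) interval of the heights summed over the regions. Those sums ran from 6 to 56 with a median of 21, so the intervals are wide, and they cover counting error only. A gene was called where its ratio was above 1.4 or below 0.7 and the higher library had an enriched interval. These are the main limits of the study for the genotype comparison. For PJ34 the study used 1.2 and 0.83, and it also let these limits in between genotypes for genes of high signal, so counts with them are given as well. These values describe polymerase occupancy and not transcript levels, and in bulk cultures a different mix of cells cannot be told apart from different occupancy per cell.

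Synthetase genes carried polymerase at about the level of other genes. The 27 genes had a median height of 10 without and 10.5 with PJ34 in Parp14+/+ cells, and of 10 without and 9 with PJ34 in Parp14-/- cells. Over all genes the medians were 9.25, 10, 9 and 8.5. Intervals were found at 25, 25, 23 and 23 of the 27 genes in these libraries, against 83.1%, 81.6%, 71.5% and 68.1% of all genes. All 27 genes had an interval in a Parp14+/+ library, which the other genes need not have. Neither these counts nor the median heights therefore compare like sets. All 4 libraries had an interval at 22 genes, 18 of 19 cytosolic and 4 of 8 mitochondrial. The cytosolic gene outside this group was Nars, with no interval in Parp14+/+. The 4 mitochondrial genes were Ears2 and Fars2 (interval in Parp14+/+ alone), Iars2 (both Parp14+/+ libraries) and Rars2 (Parp14+/+ + PJ34 alone).

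The accepted mitochondrial genes did not stand below the cytosolic genes in height. Their median height over the 8 genes, with or without an interval, was 12.25, 11.75, 11 and 11 in the 4 libraries, against 9, 10.5, 10 and 9 for cytosolic genes, with ranges that overlapped in every library. The 7 mitochondrial genes with misplaced names, which had no interval in Parp14+/+ cells, ran from 3 to 8 in Parp14+/+. In Parp14+/+ cytosolic genes ran from 6 (Cars) to 19 (Farsa), and mitochondrial genes from 5.33 (Rars2) to 24.5 (Tars2). The share of the gene covered was smaller for the mitochondrial genes. The median share of gene length under intervals was 28.3%, 27.5%, 15.7% and 12.2% for cytosolic genes, against 6.96%, 2.15%, 0.710% and 0.710% for mitochondrial genes. Over all genes it was 16.9%, 11.0%, 5.67% and 4.18%, so the median cover was smaller in the Parp14-/- libraries across the table as well.

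**Figure D1:**
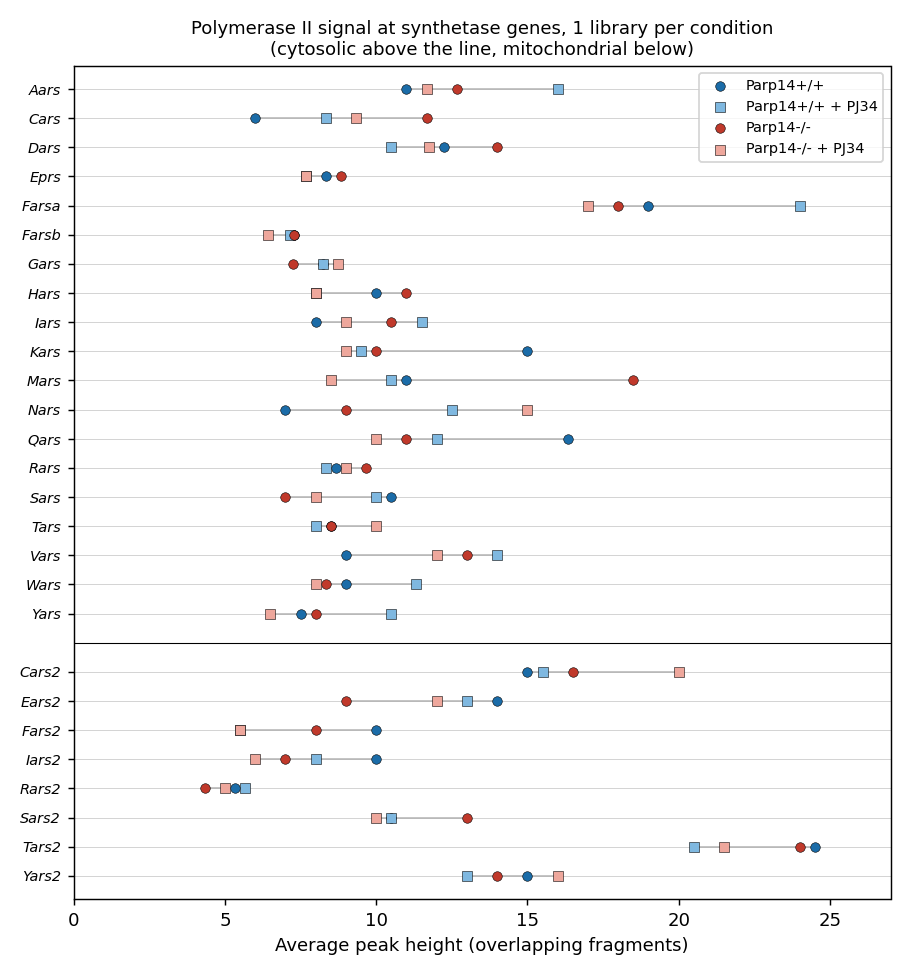
Average peak height (overlapping fragments, linear axis from 0) of 27 synthetase genes, with each point a library, circles untreated and squares PJ34, blue Parp14+/+ and red Parp14-/-; grey lines join the lowest and highest library and are not errors. Tars2 and Farsa are the tallest genes in Parp14+/+, at 24.5 and 19, and Mars stands out in Parp14-/- at 18.5.

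Which neighbour shares a region bears on every value below. Active regions of 20 of the 27 genes reached another protein-coding gene of the GENCODE annotation, and those of Aars reached Exosc6, placed at its end by the gene table. The highest summit assigned to a synthetase gene could lie within 1000 bp of the start of a different gene that was the nearest start in the GENCODE annotation. This was so in 9 of 25 genes with an interval in untreated and 8 of 25 in PJ34-treated Parp14+/+ cells, and in 9 of 23 and 6 of 23 in Parp14-/- cells. Ears2 was counted in Parp14+/+, although its summit lay nearer to the start given in its own row. The highest summit lay at the start of another gene in all 4 libraries for Kars (Adat1), Mars (Ddit3), Qars (Qrich1) and Tars2 (Ecm1). The values of Farsa were identical to those of the row of Syce2, the gene downstream.

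Loss of PARP-14 was first compared in untreated cells, as the ratio of Parp14+/+ to Parp14-/-. Of 27 synthetase genes, 12 had a ratio above 1, 13 below and 2 equal to 1. Higher in Parp14+/+ and called were 5 genes, Kars, Qars, Sars, Ears2 and Iars2, where 11.0% of all genes were called in that direction. Lower and called were 3 genes, Cars, Mars and Vars, where 8.98% of all genes were called. Together 8 of 27 genes were called, against 1708 of 8538 genes in the table. With limits of 1.2 and 0.83, 6 genes were higher and 6 lower, against 24.6% and 19.8% of all genes. The median ratio was 1, the same as over all genes. Among the 7963 genes with an interval in a Parp14+/+ library, as all 27 have, 11.8% were called higher and 7.60% lower, with a median of 1.04. The median was 0.938 for cytosolic genes. For mitochondrial genes it was 1.15 over the 8 accepted genes (6 above 1 and 2 below), but 0.909 over the 15 genes found by position (6 above and 8 below), 0.965 with a summed height of at least 20 and 0.936 with the highest interval overlapping the gene, so no direction was read from it. Called genes nearest to the limits were Iars2 at 1.43 and Vars at 0.692, and the nearest genes not called were Fars2 at 1.25 and Iars at 0.762.

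In the presence of PJ34 the same genotype comparison gave 15 genes above 1, 9 below and 3 equal. Farsa, Wars and Yars were called higher in Parp14+/+ + PJ34, 3 of 27 genes where 19.7% of all genes were called, and 0 genes were called lower, where 4.57% of all genes were. The median ratio was 1.06, and over all genes it was 1.14. Of genes with an interval in a Parp14+/+ library, 21.1% were called higher and 3.59% lower, with a median of 1.16. With limits of 1.2 and 0.83, 8 synthetase genes were higher and 3 lower, against 37.3% and 10.8% of all genes. With libraries scaled to the median ratio the split was 1 higher (Yars, at 1.41) and 2 lower (Tars and Cars2), where 11.0% and 9.56% of all genes were called. No gene was called in both genotype comparisons as deposited. Yars had the largest ratio at 1.62 (0.772 to 3.51). The genes nearest the upper limit were Farsa at 1.41, inside it, and Aars at 1.37, outside.

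**Figure D2:**
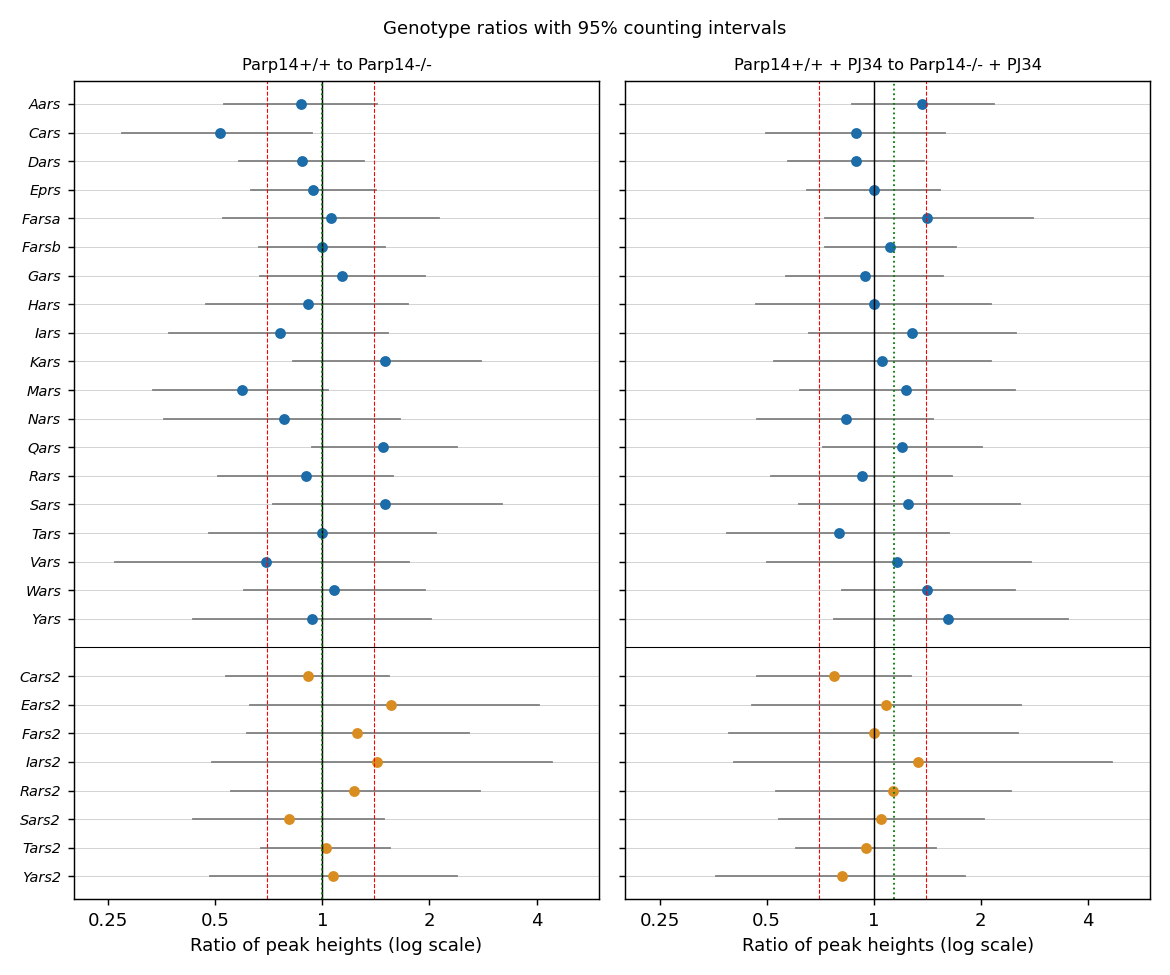
Ratio of peak heights between genotypes (log axis) for 27 synthetase genes, untreated on the left and with PJ34 on the right, with cytosolic genes in blue above the line and mitochondrial genes in orange; bars are 95% counting intervals, red dashes the limits of 0.7 and 1.4, and the green dotted line the median of all genes. Bars cross 1 for every gene in both panels except Cars on the left.

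PJ34 was compared with no treatment within each genotype. In Parp14+/+ cells 15 genes had a ratio of untreated to treated above 1, 10 below and 2 equal. Kars and Fars2 were called higher without PJ34, where 6.24% of all genes were called. Aars, Iars, Nars and Vars were called lower without PJ34, 4 of 27 genes where 9.22% of all genes were called. With scaled libraries 3 were higher (Kars, Fars2 and Qars) and 2 lower (Nars and Vars), where 8.44% and 7.93% of all genes were called. With the limits of 1.2 and 0.83, 5 genes were higher without PJ34 and 8 lower, against 16.2% and 23.5% of all genes. The median ratio was 1.04, against 0.959 over all genes. Of genes with an interval in a Parp14+/+ library, 6.69% were called higher and 9.88% lower. In Parp14-/- cells 19 genes were above 1 and 8 below. Mars was the only gene called higher without PJ34, where 11.4% of all genes were called, and Nars the only gene called lower, where 3.98% were. With the limits of 1.2 and 0.83, 5 were higher and 3 lower, against 25.7% and 10.2%. The median was 1.10, against 1.08 over all genes. Of genes with an interval in a Parp14+/+ library, 10.6% were called higher and 3.28% lower. With scaled libraries 1 was higher and 1 lower, against 6.65% and 6.79% of all genes. Fars2 also passed the limit at 1.45 but had no interval in either library.

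Counting error was small enough to set a ratio apart from 1 for a single gene in each of 2 comparisons. These were Cars between genotypes without PJ34, where 3.10% of all genes had an interval that left out 1, and Mars for PJ34 in Parp14-/- cells, where 1.66% had. No synthetase gene had such an interval in the other 2 comparisons, where 3.48% (genotype with PJ34) and 1.61% (PJ34 in Parp14+/+) of all genes had.

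The 4 libraries were also read together. In 7 genes both Parp14+/+ libraries were higher than both Parp14-/- libraries (Farsa, Qars, Sars, Wars, Ears2, Iars2 and Rars2), as in 26.5% of all genes. In 3 genes they were lower (Cars, Rars and Cars2), as in 10.7% of all genes. Both untreated libraries were higher than both PJ34 libraries in 8 genes (Dars, Eprs, Farsb, Hars, Kars, Mars, Fars2 and Tars2), against 11.8% of all genes, and lower in 1 gene, Nars, against 9.37%. Of genes with an interval in a Parp14+/+ library, the genotypes were separated in 28.1% (Parp14+/+ higher) and 9.45% (lower), and the PJ34 libraries in 11.9% (untreated higher) and 9.05% (lower). The genotype counts were close to those background shares, while the 8 genes higher without PJ34 were 29.6% of the 27. With each library scaled to its median ratio to Parp14+/+, the genotype split was 5 higher and 6 lower (21.2% and 19.2% of all genes), and the PJ34 split 6 and 4 (13.4% and 15.0%).

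Of the multi-synthetase complex, 7 of 8 genes had an accepted row, with Lars the exception. Eprs, for the glutamyl-prolyl enzyme, had heights of 8.33, 7.67, 8.83 and 7.67 in Parp14+/+, Parp14+/+ + PJ34, Parp14-/- and Parp14-/- + PJ34, the order used for every set of 4 heights below. It changed little in height, but its covered length was 73.8%, 44.4%, 43.0% and 34.9%, the widest cover of the complex in Parp14+/+. Its highest summit stood 1621 and 2165 bp past the 3′ end in the Parp14+/+ libraries and 578 bp into the gene in Parp14-/-. In Parp14-/- + PJ34 summits of equal height (11) stood 1261 bp into the gene and 1461 bp past its 3′ end. Rars (arginine) was likewise covered over most of its length in Parp14+/+ (70.1%, 51.1%, 36.7% and 54.0%). Its heights were 8.67, 8.33, 9.67 and 9, lower in both Parp14+/+ libraries by less than the counting error.

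Dars, for the aspartyl enzyme, had a summit at its own start in each library. These start summits were 14, 17, 23 and 21, lower in both Parp14+/+ libraries than in both Parp14-/- libraries. The average height of Dars was 12.25, 10.5, 14 and 11.75, which also takes in a summit of 21 at the start of Mcm6 in Parp14+/+. Its genotype ratios were 0.875 (0.584 to 1.31) and, with PJ34, 0.894 (0.575 to 1.38). Iars, for the isoleucyl enzyme, had heights of 8, 11.5, 10.5 and 9, so Parp14+/+ was the lowest and Parp14+/+ + PJ34 the highest. Iars was called in Parp14+/+ cells at 0.696 (0.343 to 1.38), just inside the limit, and all 4 libraries had an interval over its start.

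Kars, for the lysyl enzyme (chr8:114517343-114535168, minus strand, mm9), had a height of 15 in Parp14+/+ and 9.5, 10 and 9 in the other libraries. It was thus high in a single library. Its ratio was 1.5 (0.824 to 2.79) against Parp14-/- and 1.58 (0.860 to 2.97) against Parp14+/+ + PJ34. The summit behind these values (22, 13, 15 and 14) lay 606 to 1182 bp past the 3′ end of Kars, between 22 and 534 bp from the start of Adat1, a tRNA adenosine deaminase gene. Inside Kars itself a summit was found in Parp14+/+ alone, with a height of 8.

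Mars, for the methionyl enzyme (chr10:126733282-126748695, minus strand), had heights of 11, 10.5, 18.5 and 8.5. Only Parp14-/- was high, with a ratio of Parp14+/+ to Parp14-/- of 0.595 (0.334 to 1.03) and of Parp14-/- to Parp14-/- + PJ34 of 2.18 (1.2 to 4.12). The mean was taken over 2 regions. The region at its 3′ end peaked at the start of Ddit3, which encodes the stress factor CHOP, with summits of 15, 13, 22 and 10. The region at the start of Mars had a summit of 7 in Parp14+/+ and 15 in Parp14-/-, and no interval there in either PJ34 library. Both regions were therefore highest in Parp14-/-.

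Qars, for the glutaminyl enzyme, had heights of 16.33, 12, 11 and 10, highest in Parp14+/+ at 1.48 (0.936 to 2.38) times Parp14-/-. The summit at the start of Qrich1, 1179 to 1627 bp past the end of Qars, hardly differed (19, 21, 18 and 19). A summit inside Qars was found in Parp14+/+ alone, at 6. With the highest interval overlapping the gene in place of the average, the ratio turned to 0.333 (6 against 18). The 18 was the summit at the start of Qrich1. Its interval reached into Qars in Parp14-/- but began past the end of Qars in Parp14+/+, so this ratio compares unlike places.

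**Figure D3:**
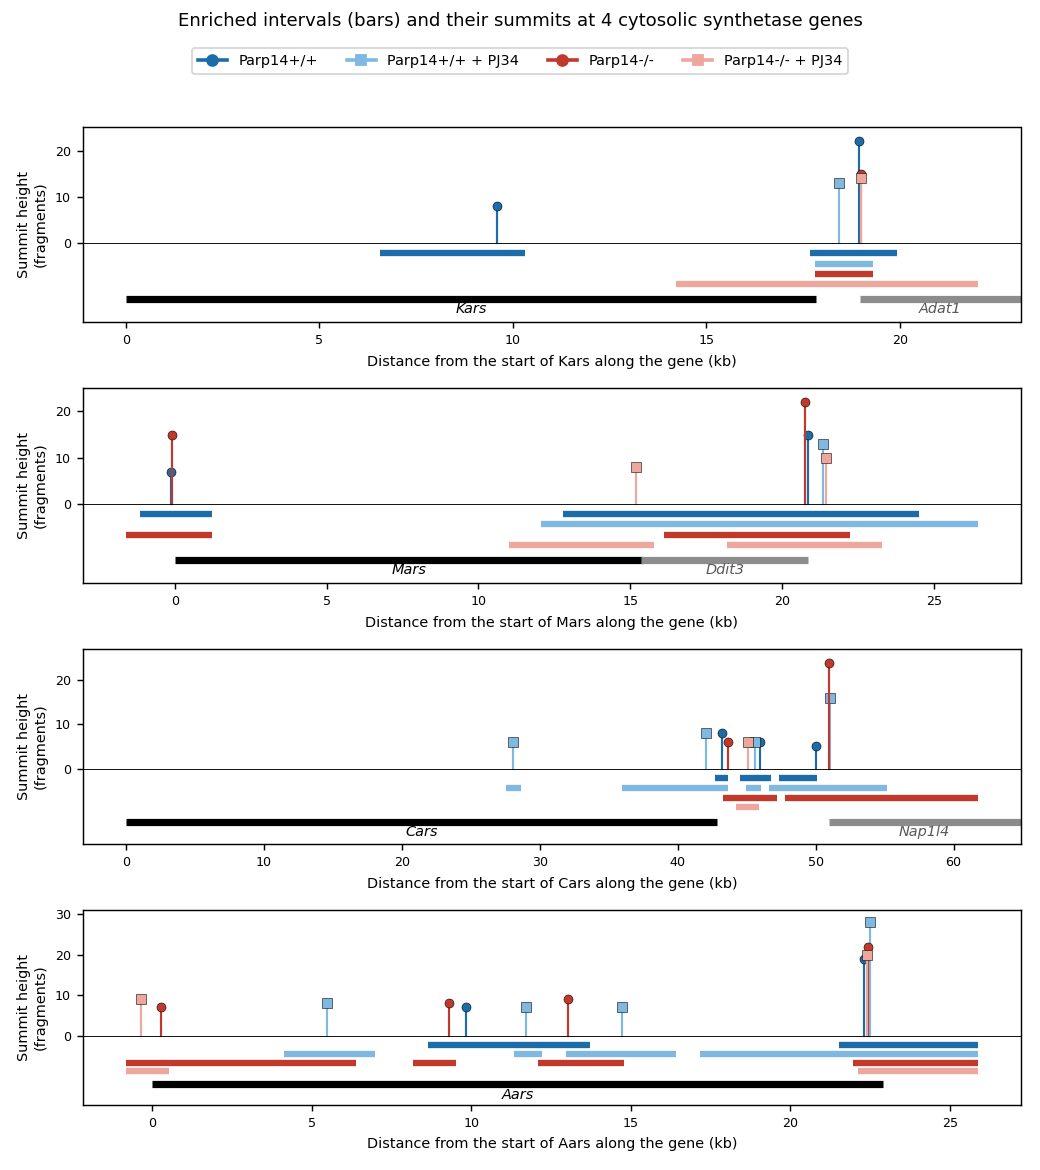
Enriched intervals (horizontal bars, 1 row per library) and summit heights (vertical lines, in fragments) at Kars, Mars, Cars and Aars against distance from the gene's start in kb along its direction; black bars are the synthetase genes and grey bars a neighbour. Summits stand at the edge of Adat1 (22, 13, 15 and 14), at the start of Ddit3 (15, 13, 22 and 10) and, in 2 libraries, at the start of Nap1l4 (16 and 24), outside the synthetase genes, while those of Aars lie at its 3′ end.

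Cytosolic genes outside the complex were led by Cars, for the cysteinyl enzyme (chr7:150743133-150785961, minus strand). Its heights were 6, 8.33, 11.67 and 9.33, lower in both Parp14+/+ libraries than in both Parp14-/- libraries. The genotype ratio was 0.514 (0.274 to 0.933) without and 0.893 (0.499 to 1.59) with PJ34. In Parp14-/- the largest summit, 24, lay 21 bp from the start of Nap1l4, a histone chaperone gene, and 8156 bp past the end of Cars. No summit lay within Cars or 1000 bp upstream of it in Parp14+/+ or in either Parp14-/- library, and the share of Cars covered was 0.273%, 18.5%, 0% and 0%.

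Aars, for the alanyl enzyme (chr8:113557867-113580770, plus strand), had heights of 11, 16, 12.67 and 11.67, highest in Parp14+/+ + PJ34. The ratio of Parp14+/+ to Parp14+/+ + PJ34 was 0.688 (0.428 to 1.09). In each library the highest summit (19, 28, 22 and 20) lay inside Aars, 419 to 579 bp before its 3′ end. The row of Exosc6, an exosome subunit gene that overlaps the end of Aars in the table, held the same 4 values, so its signal and that of Aars cannot be told apart.

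Nars, for the asparaginyl enzyme, had heights of 7, 12.5, 9 and 15, lower in both untreated libraries. Its ratios were 0.560 (0.269 to 1.12) for PJ34 in Parp14+/+ cells and 0.600 (0.315 to 1.11) in Parp14-/- cells, the only gene called in both. The called intervals differed in position. In Parp14-/- + PJ34 a summit of 24 stood 95 bp into Nars, whereas in Parp14+/+ + PJ34 the single interval peaked at 9, 3706 bp past its end. The height summed over the 2 regions of Nars was 25 in Parp14+/+ + PJ34, so signal without a called interval also entered that value. The interval positions therefore do not show that the signal itself lay in different places.

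Vars, for the valyl enzyme, had heights of 9, 14, 13 and 12, so Parp14+/+ alone was low. Vars was called at 0.692 (0.261 to 1.75) between genotypes and 0.643 (0.245 to 1.59) for PJ34 in Parp14+/+ cells, both with wide intervals. Summits near its 3′ end (9, 10, 13 and 8) lay 311 to 1068 bp from the start of D17H6S56E-3, and those around its own start were 8, 14, 13 and 12. Sars, for the seryl enzyme, had heights of 10.5, 10, 7 and 8, higher in both Parp14+/+ libraries, with ratios of 1.5 (0.727 to 3.19) and 1.25 (0.615 to 2.58). Its highest summits (14, 13, 8 and 10) lay 2105 to 3481 bp past the end of its row and not at the start of another gene. In the GENCODE annotation of this build the 3′ end of Sars is at 108227783 on chromosome 3, past the end of the row at 108229530, so these summits lay nearer to that end.

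Wars (tryptophan) had heights of 9, 11.33, 8.33 and 8, and Yars (tyrosine) 7.5, 10.5, 8 and 6.5. Both were highest in Parp14+/+ + PJ34. The ratio with PJ34 was 1.42 (0.816 to 2.50) for Wars, whose regions held summits at the start of Wdr25 in 3 libraries (12, 13 and 14). The highest summits of Yars lay within the gene in each library, at 9, 10, 8 and 7. With the highest summit in the gene or up to 1000 bp upstream, 6 against 14 in the PJ34 libraries, the ratio of Wars turned to 0.429.

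Both subunit genes of the cytosolic phenylalanyl enzyme were measured and behaved differently in height. Farsa, the alpha subunit, had heights of 19, 24, 18 and 17, and Farsb, the beta subunit, 7.29, 7.14, 7.29 and 6.43. The Farsa ratio with PJ34 was 1.41 (0.727 to 2.80). In Parp14+/+ + PJ34 its summit of 24 stood 218 bp from the start of Syce2, and in Parp14-/- + PJ34 the highest summit, 17, was at the start of Farsa. With summits at the gene itself the ratio was 0.529 (9 against 17), in the opposite direction.

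The other cytosolic genes outside the complex were Gars, Hars and Tars. Gars (glycine) had heights of 8.25, 8.25, 7.25 and 8.75, Hars (histidine) 10, 8, 11 and 8, and Tars (threonine) 8.5, 8, 8.5 and 10. None of these was called in any comparison with limits of 1.4 and 0.7 and heights as deposited. Hars was past 1.2 for PJ34 in both genotypes, at 1.25 in Parp14+/+ and 1.375 in Parp14-/- cells. In 3 libraries the highest summit assigned to Hars lay at the start of Dnd1. Each library had a summit of 10 to 12 fragments 681 to 1497 bp past the 3′ end of Tars.

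Among mitochondrial genes, Tars2 was the tallest, at 24.5, 20.5, 24 and 21.5, lower in both PJ34 libraries. Its highest summits (37, 25, 35 and 31) lay at the start of Ecm1, 474 to 490 bp past the end of Tars2. Summits at the start of Tars2 itself were 12, 16 and 12 in Parp14+/+, Parp14+/+ + PJ34 and Parp14-/- + PJ34, with none in Parp14-/-. Cars2, at 15, 15.5, 16.5 and 20, shared its upstream region with Ing1, whose summits were 22, 24, 27 and 34. Cars2 was lower in both Parp14+/+ libraries, and its genotype ratios of 0.909 (0.536 to 1.54) and 0.775 (0.469 to 1.27) were not called.

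Yars2 was the mitochondrial gene with the broadest signal, covered over 100%, 91.0%, 100% and 100% of its 6647 bp, with heights of 15, 13, 14 and 16. Sars2 had heights of 10.5, 10.5, 13 and 10, with its highest summits 2533 to 4677 bp past the gene. These genes were not called in any comparison.

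The other 4 mitochondrial genes had few intervals. Ears2 (heights of 14, 13, 9 and 12) was called at 1.56 (0.627 to 4.07), and its only interval, in Parp14+/+, peaked 241 bp into the gene and 353 bp from the start of Ubfd1. Iars2 (10, 8, 7 and 6) was called at 1.43 (0.491 to 4.42), with an interval over 22.2% of the gene in Parp14+/+ and none in the Parp14-/- libraries. Fars2, the longest gene at 420183 bp, had heights of 10, 5.5, 8 and 5.5 and was called for PJ34 in Parp14+/+ cells at 1.82 (0.83 to 4.20). Its single interval covered 0.464% of the gene. Rars2 was lowest of the 27 genes in Parp14+/+, at 5.33, with 5.67, 4.33 and 5 in the other libraries.

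The 8 genes with misplaced names, found by position, had heights of 3 to 8 in Parp14+/+ and of 3 to 13 in the other libraries. Lars had heights of 5.6, 5, 4.5 and 3.8 and no interval. Aars2 had 3, 7, 8 and 13, with an interval in Parp14-/- + PJ34 alone whose summit lay 46 bp upstream of its start. Hars2, next to Hars, had 8, 6, 10 and 8.33, with an interval assigned in Parp14-/-. Nars2 had 5, 6, 11 and 12, higher in both Parp14-/- libraries but without an interval. The remaining 4 (Lars2, Pars2, Vars2 and Wars2) had heights of 3 to 9 and no interval in any of the 4 libraries. With these genes added, the counts called higher and lower over 35 genes were 5 and 3 between untreated genotypes, and 3 and 1 with PJ34, the lower gene being Aars2.

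The place of the signal along the genes was compared between libraries. The highest summit was taken within 3000 bp upstream to 5000 bp downstream, and of equal summits the first along the chromosome was kept. It lay in the last 1000 bp of the gene or past its 3′ end in 15 of 25 and 15 of 24 genes in the Parp14+/+ libraries (untreated, then PJ34), and in 10 of 23 and 11 of 23 in the Parp14-/- libraries. Such summits could lie at the start of another gene, as for Dars, Hars, Kars, Qars, Vars and Tars2 in Parp14+/+. In Parp14-/- this held for Farsa, Kars, Qars and Tars2. The share over all genes is not given for these counts, so no genotype difference was read from them. The highest summit lay within 1000 bp of the gene's start in 4, 4, 7 and 7 genes. Equal summits at different places occurred in Iars and Farsb (Parp14+/+), Tars and Yars2 (Parp14+/+ + PJ34), Vars (Parp14-/-) and Eprs (Parp14-/- + PJ34). The counts at either end thus depend in part on how such ties were settled. With each gene split into 3 equal parts, the mean cover of the part nearest the 3′ end was 41.9%, 39.4%, 28.2% and 25%, and that of the part nearest the start 21.8%, 14.0%, 14.1% and 20%. Over all genes the 3′ part was covered over 40.7%, 34.5%, 29.6% and 27.7% and the part nearest the start over 33.1%, 29.2%, 27.1% and 25.9%. Synthetase genes thus had less cover at their starts than other genes in each library. Cover of the 3′ part was smaller in the Parp14-/- libraries for the 27 genes together and for all genes. By group it was 45.1%, 49.0%, 25.5% and 30.2% for cytosolic genes. For the 8 mitochondrial genes it was 34.2%, 16.5%, 34.4% and 12.8%, so it was not smaller in untreated Parp14-/- cells there.

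**Figure D4:**
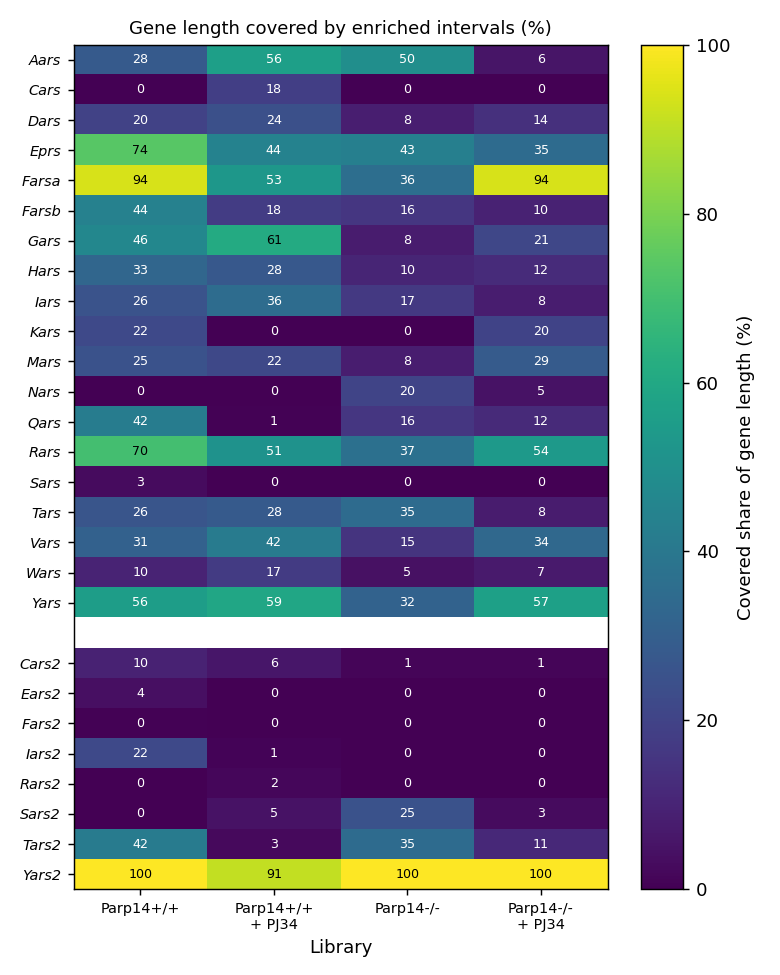
Share of gene length under enriched intervals (%, printed in each cell) for 27 synthetase genes in the 4 libraries, cytosolic above the gap and mitochondrial below. Yars2 is covered over 91% or more in every library, Eprs falls from 74% in Parp14+/+ to 35% in Parp14-/- + PJ34, and most mitochondrial genes lie near 0%.

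Promoter sequence was read for 2 motifs known from the family. The core of the amino acid response element, TGATGNAA, is bound by ATF4 with its partners, and the E-box CACGTG by MYC and related factors. RefSeq promoters of GRCm38.p6, from 250 bases before to 50 after the start, were at hand for 21 of the 27 genes and missing for Cars, Hars, Nars, Rars, Vars and Wars. On either strand TGATGNAA was found in 5 of 21 synthetase genes (23.8%), against 4.51% of all genes with a promoter entry. These were Aars, Gars, Iars, Tars and Yars. CACGTG was also found in 5 of 21 (Aars, Ears2, Farsb, Iars and Tars), against 8.09% of all genes. In no gene did the motifs overlap each other.

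A window around a TGATGNAA match is shown for each because the motif is what these 5 genes share in sequence, with matches in capitals (TTGCATCA and TTTCATCA are matches on the opposite strand) and, in Aars, the E-box as well. They lie at chr8:111033684-111033763 (plus strand) for Aars, chr6:55037925-55038000 (plus) for Gars, chr13:49682127-49682154 (plus) for Iars, chr15:11399659-11399719 (minus) for Tars and chr4:129189896-129189923 (plus) for Yars, all in GRCm38.p6.
Aars: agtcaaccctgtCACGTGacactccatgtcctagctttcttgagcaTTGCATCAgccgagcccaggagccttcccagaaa
Gars: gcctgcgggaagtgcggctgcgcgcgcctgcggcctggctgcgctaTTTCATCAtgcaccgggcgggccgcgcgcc
Iars: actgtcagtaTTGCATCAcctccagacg
Tars: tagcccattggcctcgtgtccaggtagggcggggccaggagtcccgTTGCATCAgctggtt
Yars: cgagctcagcTGATGCAAcccgacggga

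The match shown began 112 bases before the start in Aars, 30 before in Gars and 15 before in Tars, and 7 and 3 bases from the start, within the transcript, in Iars and Yars. Aars held a further match, TTTCATCA, 9 bases from the start and outside the window shown. The 5 genes with the motif did not share a direction. Their ratios of Parp14+/+ to Parp14-/- were 0.868, 1.14, 0.762, 1 and 0.938 for Aars, Gars, Iars, Tars and Yars, and none was called. For PJ34 in Parp14+/+ cells the ratios were 0.688, 1, 0.696, 1.06 and 0.714, with Aars and Iars called.

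The amino acid stress response was read from 18 genes, of which 15 had an interval in a library. Between untreated genotypes 1 was called higher in Parp14+/+ and 2 lower, with a median ratio of 1.07. In this and the lists that follow, the shares of all genes called higher and lower are those given above for each comparison, 11.0% and 8.98% between genotypes without PJ34, 19.7% and 4.57% with it, 6.24% and 9.22% for PJ34 in Parp14+/+ and 11.4% and 3.98% in Parp14-/-. Atf4 had heights of 39, 49, 66 and 62, lower in both Parp14+/+ libraries, with ratios of 0.591 (0.387 to 0.891) without and 0.790 (0.532 to 1.17) with PJ34. Ddit3 was also called, at 0.682 (0.329 to 1.38), with the heights given under Mars. Trib3 had heights of 7, 9.5, 10 and 11, while Sesn2, which encodes a leucine sensor, had 12, 16, 9.5 and 8. Over the 15 genes, 8 had a ratio above 1 between untreated genotypes and 6 below, so the list did not share the direction of Atf4. With PJ34 2 genes were called higher in Parp14+/+ (Sesn2 and Ddit4) and 0 lower, with a median of 1. For PJ34 within genotypes 0 were called higher without it and 1 lower in Parp14+/+, and 2 higher and 0 lower in Parp14-/-.

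Partners of the synthetases, scaffolds of the complex and enzymes acting beside them, had an interval for 12 of 16 genes. Called higher and lower in Parp14+/+ were 3 and 2 without PJ34 (median ratio 1.23) and 4 and 0 with it (median 1.18, against 1.14 over all genes). Xpot, the tRNA exporter, had heights of 11.5, 8.67, 8 and 8.5 and a ratio of 1.44 (0.980 to 2.12). Eef1a1, the factor that carries charged tRNA to the ribosome, was far taller at 82, 84, 62 and 63, with ratios of 1.32 (0.939 to 1.87) and 1.33 (0.95 to 1.88). For PJ34 0 and 4 of the partners were called higher and lower without it in Parp14+/+, and 2 and 0 in Parp14-/-.

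Amino acid synthesis genes had an interval for 17 of 22 genes, with 3 called higher in Parp14+/+ and 0 lower both without and with PJ34, at median ratios of 1 and 1.31. The medians over all genes were 1 and 1.14, and 11.0% and 19.7% of all genes were called higher. None of the 17 was called for PJ34 in either genotype. Glud1 (glutamate dehydrogenase) had heights of 21, 15, 12.5 and 10.5, and Pycr1 (proline synthesis) 21, 19, 14 and 14. Both were higher in the Parp14+/+ libraries, at 1.68 (1.00 to 2.88) and 1.5 (0.727 to 3.19) without PJ34.

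Amino acid transporters had an interval for 9 of 16 genes. Between genotypes 1 was called higher and 2 lower in Parp14+/+ without PJ34, and 2 higher and 1 lower with it, at medians of 1 and 1.09, where the medians over all genes were 1 and 1.14. Slc1a5, a glutamine transporter, had heights of 19, 27, 34 and 34, lower in both Parp14+/+ libraries, with a ratio of 0.559 (0.301 to 1.01). Slc3a2, the heavy chain of several transporters, had 30, 26, 31 and 29. Slc7a6 had 11, 11.67, 7.67 and 8.67, and Slc38a10 had 9.25, 11.75, 7.75 and 7.5, both higher in the Parp14+/+ libraries. For PJ34 0 were called higher and 2 lower without it in Parp14+/+, and 2 and 1 in Parp14-/-.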

How the data were processed

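RNA Polymerase II ChIP-Seq was done in 4 Th2 libraries and an Input. The authors mapped reads to mm9, removed duplicates, equalised the alignments of the libraries, extended them to fragments, called enriched intervals with SICER against Input and deposited signal values, the average peak heights per gene and the summit heights per interval. The gene table also held 8 columns of per-sample values from libraries not analysed here, which were not used. Equalising removes differences in total signal, and heights take in the peaks of neighbouring genes.

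Ratios of heights and their exact binomial intervals (95%, scipy 1.17.1, pandas 2.3.3, Python 3.11.15, matplotlib 3.10.9) were computed in 4 library pairs. The code was run on simulated independent counts of genes with a higher average summed height than any synthetase gene. That run therefore does not show how intervals or calls behave at the heights of the synthetase genes. Summed height was the average times the number of regions. Coordinates and gene ends came from GENCODE on NCBIM37, promoters from RefSeq (GRCm38.p6). Every accepted synthetase gene was named. From the lists of partners, stress, synthesis and transport genes, those with the 2 highest and 2 lowest ratios of Parp14+/+ to Parp14-/- were named, given a summed height of at least 20 and the same side of 1 with PJ34, and Atf4. Ddit3 was named besides, as the neighbour of Mars, after its values were seen, as were Ddit4 and the genes whose starts lie at the summits. The members and lists were chosen with earlier results of these data known. Shares of genes with an interval in a Parp14+/+ library were added after seeing the data. Alternatives were other limits, 1 added to heights, a minimum summed height of 20, scaled libraries and other summit choices, of which the summits at the gene and the omission of shared summits were chosen after seeing the data.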

Additional observations from a re-analysis of the deposited data

How the results depend on the processing

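The count of called genes depended on the settings. Between untreated genotypes (8 of 27 called) it was 0 of 27 with limits of 2 and 0.5, and 5 of 18 with a summed height of at least 20. It was 13 of 26 with the highest interval overlapping the gene, and 5 of 14 with the highest summit in the gene or 1000 bp upstream. Without genes whose highest summit lay at the start of another gene it was 2 of 15 (Sars and Iars2). The second number is the count of genes left to compare under each setting. With PJ34 (3 of 27 called) it was 11 of 27 with limits of 1.2 and 0.83 and 0 of 27 with 2 and 0.5. It was 1 of 27 with 1 added to the heights and 9 of 24 with the highest overlapping interval. For PJ34 in Parp14+/+ (6 of 27 called) these limits gave 13 and 0 of 27 and the overlapping interval 11 of 26. In Parp14-/- (2 of 27 called) the limits gave 8 and 1 of 27. There the overlapping interval gave 6 of 21, the summit in the gene 6 of 14 and the omission of shared summits 1 of 17. Shares over all genes stand above for the limits of 1.2 and 0.83 and are not given for the other settings here. These other counts are therefore not read against the rest of the table. With the summit in the gene, median ratios of mitochondrial genes were 0.684 (untreated genotypes) and 0.715 (PJ34 in Parp14-/-). Each of these rests on only 2 genes and does not describe the mitochondrial group. With the same setting the median moved to 0.909 over 11 cytosolic genes (genotypes with PJ34). It moved to 0.759 over 6 mitochondrial genes (genotypes with PJ34) with the overlapping interval, and to 1 over 19 cytosolic genes (PJ34 in Parp14-/-) after scaling. The directions of Qars (0.333, overlapping interval), Farsa (0.529) and Wars (0.429, both with the summit in the gene, genotypes with PJ34) turned. For Qars the interval of Qrich1 entered the value in Parp14-/- and not in Parp14+/+, as described above. The cause of the other shifts was not tested. No paired analysis was possible because each condition had 1 library, and no library could be left out for the same reason. Sums of 6 to 56 fragments limit what can be told apart.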
